A study of Caenorhabditis elegans with 6 samples.

Results

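Messenger RNA of 77 homeobox genes was examined in starved L1 larvae, the first larval stage, of the nematode Caenorhabditis elegans. They were taken from 17118 genes named by at least 1 probe set of the array. A gene was taken if its platform symbol began with ceh- (60 genes) or was 1 of 17 further homeobox genes. Those were lin-39, mab-5, egl-5, nob-1, php-3, unc-4, unc-30, unc-42, unc-86, ttx-3, ttx-1, lim-4, lim-6, lin-11, vab-7, pal-1 and mec-3. Each gene stood for the probe set with the highest mean over the 6 arrays, and 19 of the 77 had more than 1 probe set (100 in all). The 6 Affymetrix arrays comprised 2 of elo-5(gk208) larvae whose parents were given C13ISO (elo-5 C13ISO), 2 of elo-5(gk208) larvae whose parents were given C17ISO (elo-5 C17ISO), and 2 of larvae of the wild-type strain N2 whose parents were given C13ISO (N2 C13ISO). C13ISO and C17ISO are branched-chain fatty acids, and elo-5 encodes an elongase needed to make C17ISO, so mutants given only C13ISO are called C17ISO deficient in the labels. All 3 groups shared a grandparental generation on 1 mM C17ISO, a parental generation on 1 mM of the stated fatty acid with OP50 bacteria at 20 °C, and 24 h without food after the eggs were released by bleaching. RNA came from whole larvae collected from plates, the mutant is represented by 1 allele, and N2 given C17ISO was not analysed here. The labels number the arrays of a group as replicates without saying whether they came from separate cultures, so p-values measure the spread between these arrays, which may be technical.

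Homeobox genes encode transcription factors that bind DNA through a homeodomain and set the identity of cells by position and by type. The Hox cluster genes act in order along the body axis, from ceh-13 in front to nob-1 and php-3 at the tail. Other classes specify single cell types: ceh-32, its relatives and NK-2 factors act in the head and pharynx, and PRD-like, LIM and POU factors act as terminal selectors, which hold on the genes that give a neuron its final identity. PBC factors bind DNA together with Hox proteins. In the hatched larva most of these genes are expressed in few cells, so that a whole-animal array measures them against the RNA of all other cells.

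The deposited values are intensities on a linear scale, whose height depends on the probe set. They were therefore compared between arrays of the same probe set, or as sums over the same list of probe sets. Such sums follow the brightest probe sets of a list most. Array medians ran from 107 to 134. The mean over 6 arrays lay above the 30th percentile of all probe sets (an intensity of 31.2) for 59 of the 77 genes and at or below it for 18, called dim here, and 6 genes read under 16 on all 6 arrays. Nearest under that line were ceh-24 and ceh-60, with means of 31 and 28.4, and nearest over it lim-4 and lim-6, with means of 36.5 and 37.2. Means of members such as lim-4, ceh-8, ceh-36, ceh-45 and ceh-49 passed the line only through their elo-5 C13ISO arrays. Most of their other arrays, given below, read under it. All 77 were tested and none was filtered out. On the log2 scale, the median gap over the 77 genes between both arrays of a group was 0.226 in the deficient mutants (elo-5 C13ISO), 0.189 in the C17ISO-supplied mutants and 0.165 in N2. The widest gaps were 1.51 in nob-1, 1.05 in ceh-36 and 0.82 in ceh-57, in that order of groups. Differences were taken on the log2(intensity + 16) scale, which understates the change of dim genes. In what follows a gene rose or fell only where its adjusted p from limma, over all 22548 probe sets, was under 0.05.

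The elo-5 probe set read 217 and 144 in elo-5 C13ISO, 146 and 178 in elo-5 C17ISO, and 1169.7 and 1608 in N2 C13ISO. It was lower than N2 in elo-5 C13ISO (log2 -2.84, 95% interval -3.37 to -2.32, adjusted p = 3.8e-05) and in elo-5 C17ISO (log2 -2.97, 95% interval -3.49 to -2.44, adjusted p = 0.0018). The second of these calls was lost without either elo-5 C17ISO array or N2 C13ISO array 2 (adjusted p = 0.052 to 0.0616). Its position with respect to the gk208 deletion is not known from the labels or files. The first principal component of all probe sets (77.7% of the variance) separated both arrays of elo-5 C13ISO from the remaining 4. Markers of several cell types moved with that split. Of 24 oocyte and early embryo markers, 21 rose against elo-5 C17ISO and 20 against N2, and their summed intensity was 11398 to 17577 in elo-5 C13ISO, 2812 to 3793 in elo-5 C17ISO and 3605 to 4388 in N2. Of 18 pan-neuronal genes, 2 and 1 rose and 0 fell (0 also at an unadjusted limma p under 0.05), with sums of 32587 to 34446, 31013 to 32917 and 28685 to 31503. Of 10 body wall muscle genes, 0 and 1 rose and 1 fell in each comparison, and of 9 intestine genes 2 and 1 rose and 3 fell in each. Of 10 epidermis genes, 1 rose in each comparison, 5 fell against elo-5 C17ISO and 6 against N2, with sums of 8086 to 8648 in elo-5 C13ISO, 22669.9 to 22948 in elo-5 C17ISO and 22494 to 22503 in N2. Over all genes, 32.9% were called against elo-5 C17ISO and 32% against N2. No marker of these 5 lists was under 16 on all 6 arrays. In whole larvae, fewer cells of a type and less RNA per cell cannot be told apart, and the part of these shifts in the results below was not tested.

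Supply of C13ISO in place of C17ISO to elo-5 parents was accompanied by higher RNA of 21 homeobox genes and lower RNA of 9 among the 77 (39% called), while 47 did not pass the test. Among all 17118 genes 32.9% were called, 19.8% higher and 13.1% lower, so the share called among homeobox genes was a little above the background. The genes that rose came from the class of ceh-32, ceh-33 and ceh-34 (3 of 3), the PRD-like class (6 of 12), the NK-like class (4 of 17), the LIM class (2 of 6), the Hox cluster (2 of 6), the PBC class (1 of 3), the CUT and ONECUT class (1 of 6) and the remaining ceh genes (2 of 19). The genes that fell were 2 of 6 Hox, 2 of 3 POU, 1 of 17 NK-like, 1 of 6 LIM, 1 of 3 PBC and 2 of 19 remaining ceh genes. The median log2 difference was 0.15, against 0.05 over all genes, and the members ranged from -1.08 (ceh-6) to 2.21 (ceh-49). A change of at least 2-fold was called for 16 members, 14 higher and 2 lower, with 14.7% of all genes passing that rule. The values of both groups did not overlap for 34 members that were higher and 23 that were lower in elo-5 C13ISO. Of all genes 64.2% did so, 36.7% higher and 27.5% lower. The balance of rises and falls depended on scaling. It was 18 to 13 after quantile normalization and 16 to 17 with array medians aligned. These settings moved the median of all probe sets from 0.05 to -0.01 and -0.18.

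Against N2 given the same C13ISO, 22 homeobox genes were higher in elo-5 C13ISO, 9 were lower and 46 did not pass the test (40.3% called, with 32% of all genes called, 18% higher and 14% lower). The comparison shares the elo-5 C13ISO arrays with the preceding one, so the values are given side by side and not as independent support. The median log2 difference was 0.13, against 0.03 over all genes. A change of at least 2-fold was called for 16 members, 13 higher and 3 lower, with 14.9% of all genes passing that rule. The arrays did not overlap for 33 members that were higher and 18 that were lower, while 65.6% of all genes did so, 35.5% higher and 30% lower. The split was 18 to 10 after quantile normalization and 16 to 15 with array medians aligned. These scalings moved the median of all probe sets from 0.02 to -0.01 and -0.14. Without N2 C13ISO array 1 only 16 members were called.

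**Figure D1:**
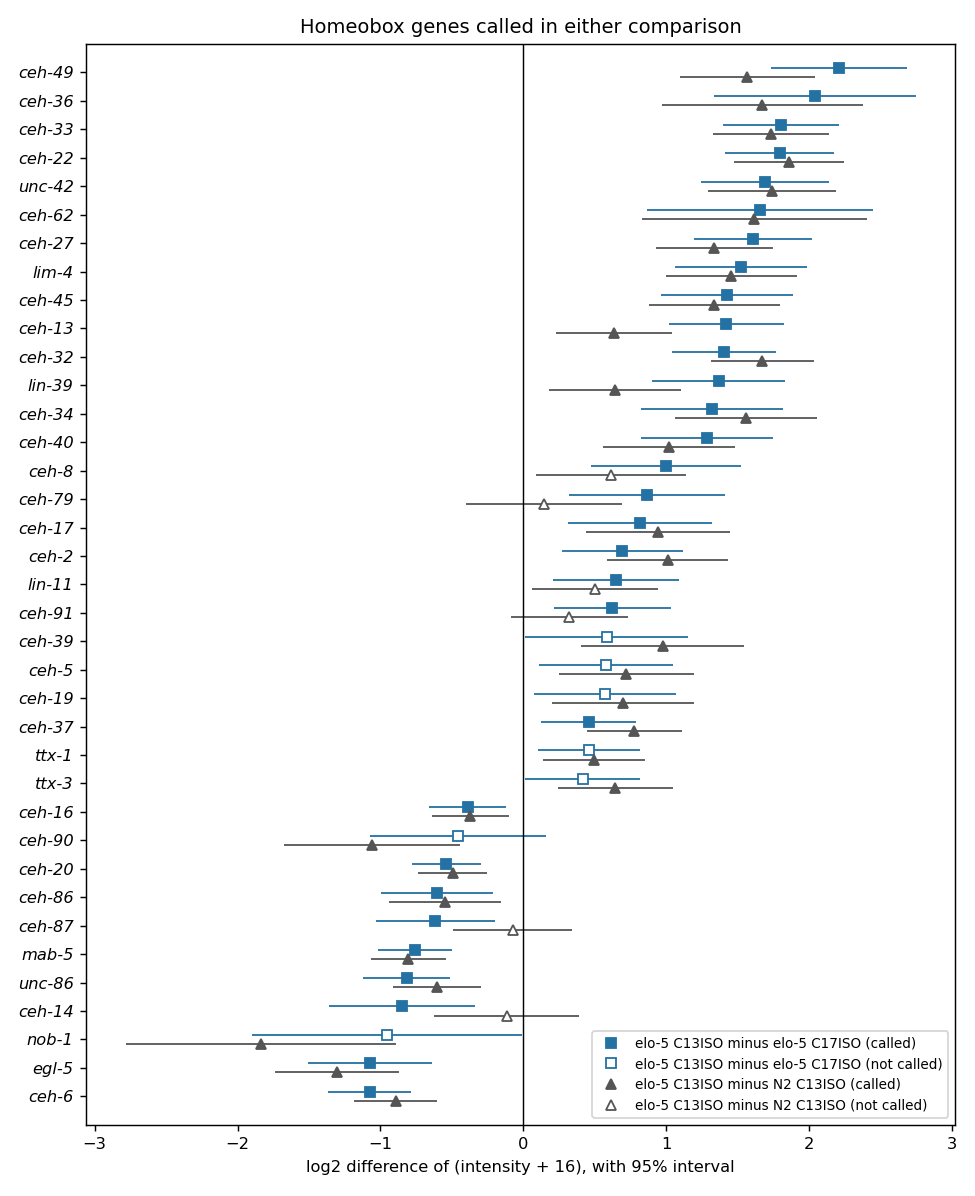
Log2 differences with 95% intervals for the 37 homeobox genes called in either comparison; squares show elo-5 C13ISO minus elo-5 C17ISO, triangles show elo-5 C13ISO minus N2 C13ISO, and filled symbols were called. The genes at the top rose in both comparisons, up to 2.21 for ceh-49. Those at the bottom were lower in elo-5 C13ISO, down to -1.84 for nob-1 against N2. Not all of these were called in both, as nob-1 was not called against elo-5 C17ISO and ceh-14 not against N2.

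**Figure D2:**
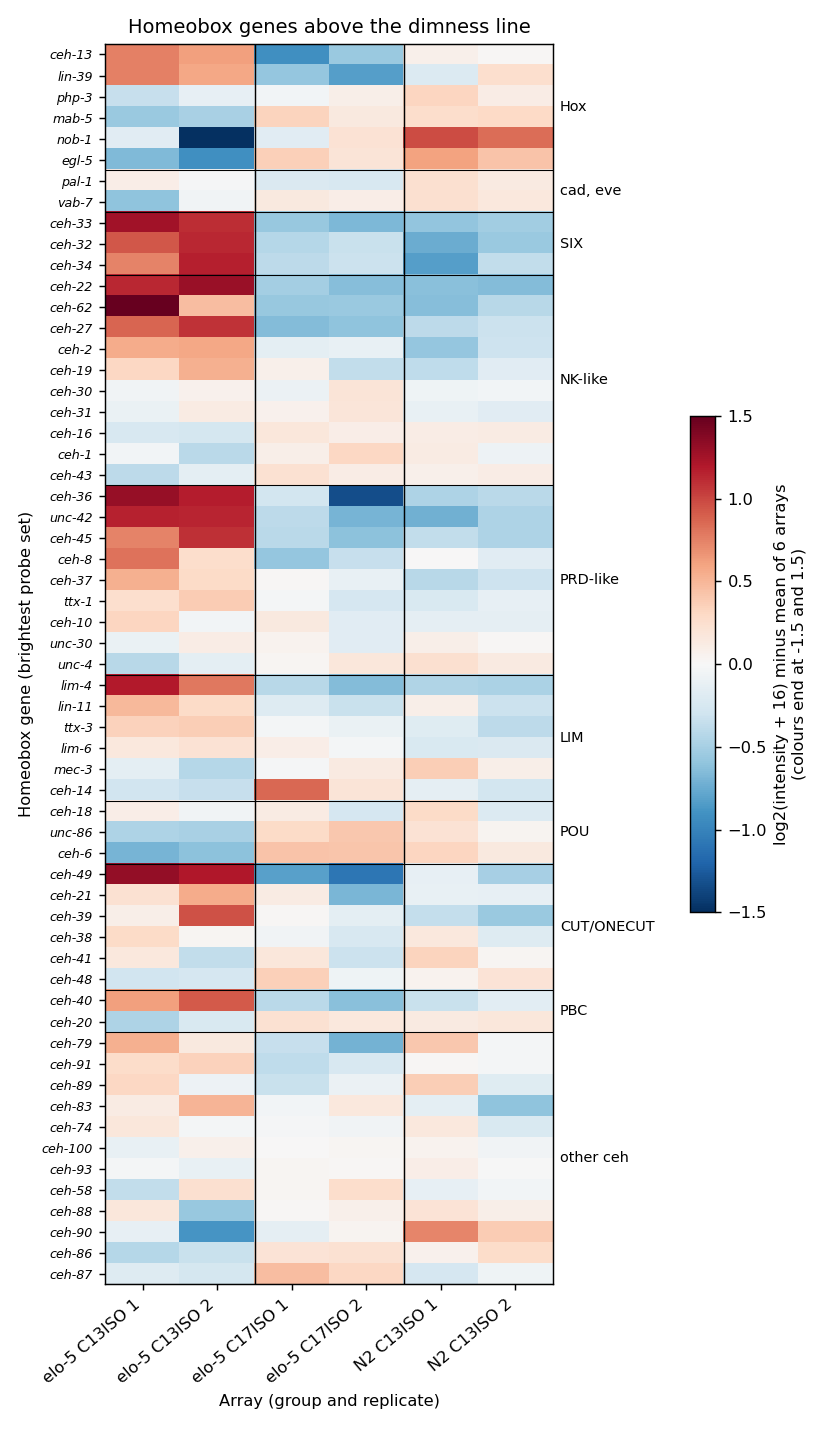
Deviation of log2(intensity + 16) from the mean of the 6 arrays for the 59 homeobox genes above the 30th percentile, by class and array, with colours ending at -1.5 and 1.5. The genes ceh-32, ceh-33 and ceh-34 were high on both elo-5 C13ISO arrays and low on the other 4, while ceh-6 and unc-86 of the POU class showed the opposite.

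Within the Hox cluster ceh-13 and lin-39, which act in the anterior and middle body, rose in elo-5 C13ISO, while mab-5 and egl-5, which act further back, fell. The labial-type gene ceh-13, which acts in the anterior body, read 416 and 375 in elo-5 C13ISO, 119.18 and 158 in elo-5 C17ISO, and 254 and 243 in N2 C13ISO. Both elo-5 C13ISO arrays lay above the other 4, and ceh-13 rose against elo-5 C17ISO (log2 1.42, 95% interval 1.02 to 1.83, adjusted p = 4.4e-04) and against N2 (log2 0.64, 95% interval 0.23 to 1.04, adjusted p = 0.0256). The gene lin-39, which patterns the midbody and the vulval precursors, read 356 and 313 in elo-5 C13ISO, 131 and 108 in elo-5 C17ISO, and 175 and 246 in N2 C13ISO. It rose against elo-5 C17ISO (log2 1.37, 95% interval 0.90 to 1.83, adjusted p = 0.00116) and against N2 (log2 0.64, 95% interval 0.18 to 1.11, adjusted p = 0.042), again with no overlap. These genes are direct neighbours on chromosome III in the WBcel235 gene table. The call of ceh-13 against N2 was lost without either elo-5 C13ISO array or either N2 C13ISO array (adjusted p = 0.0548 to 0.148) and with array medians aligned (adjusted p = 0.0687). That of lin-39 was lost without either elo-5 C13ISO array, either elo-5 C17ISO array or N2 C13ISO array 1 (adjusted p = 0.0608 to 0.28) and under either other scaling (adjusted p = 0.0704 to 0.0945).

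The gene mab-5 acts behind lin-39 and directs the posterior migration of the left Q neuroblast lineage. It read 881 and 920.4 in elo-5 C13ISO, 1643 and 1437 in elo-5 C17ISO, and 1559.8 and 1608 in N2 C13ISO. It fell against elo-5 C17ISO (log2 -0.76, 95% interval -1.02 to -0.50, adjusted p = 0.0012) and against N2 (log2 -0.80, 95% interval -1.06 to -0.54, adjusted p = 8.4e-04). Its other probe set fell to the same extent (log2 -0.77 and -0.72). The tail gene egl-5, which has 1 protein-coding gene between it and mab-5, read 58.9 and 46.7 in elo-5 C13ISO, 137 and 120.2 in elo-5 C17ISO, and 164 and 143 in N2 C13ISO. Its arrays in elo-5 C13ISO were the lowest of the 6, at 2.1-fold under elo-5 C17ISO (log2 -1.07, 95% interval -1.51 to -0.64, adjusted p = 0.00292) and 2.47-fold under N2 (log2 -1.30, 95% interval -1.74 to -0.87, adjusted p = 0.001).

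The paralogues nob-1 and php-3, Abdominal-B-type genes of the posterior end, are also neighbours. The brightest nob-1 probe set read 118 and 31 in elo-5 C13ISO, a mean of 139 ± 28.6 (SD, n = 2) with a higher array of 159 in elo-5 C17ISO, and 282 and 254 in N2 C13ISO. Its elo-5 C13ISO arrays were far apart, and the higher one came within 1 unit of the lower elo-5 C17ISO array. It fell against N2 (log2 -1.84, 95% interval -2.78 to -0.89, adjusted p = 0.00969) and missed the threshold against elo-5 C17ISO (log2 -0.96, 95% interval -1.90 to -0.01, adjusted p = 0.119). A call against elo-5 C17ISO appeared without elo-5 C13ISO array 1 (log2 -1.71, adjusted p = 0.00317) and with array medians aligned (log2 -1.19, adjusted p = 0.0233). The call against N2 was lost without either N2 C13ISO array (adjusted p = 0.055 to 0.065) and with its probe sets averaged (adjusted p = 0.0596). A further nob-1 probe set read 82.6 and 75.9 in elo-5 C13ISO, 149.8 and 144 in elo-5 C17ISO, and 146 and 117 in N2 C13ISO. It fell in both comparisons (log2 -0.78, adjusted p = 0.0123, and log2 -0.63, adjusted p = 0.0322). The dimmest probe set of nob-1 read 18.5 and 24.3 in elo-5 C13ISO, 8.75 and 9.64 in elo-5 C17ISO, and 13.4 and 4.92 in N2 C13ISO. It was not called (log2 0.57 and 0.59). The gene php-3 read 27 and 34.2 in elo-5 C13ISO, 37 and 42.4 in elo-5 C17ISO, and 52.3 and 42.9 in N2 C13ISO. Its elo-5 C13ISO arrays were the lowest, but the differences of -0.26 (adjusted p = 0.349) and -0.45 (adjusted p = 0.114) did not pass the test as deposited. The one against N2 did with array medians aligned (log2 -0.61, adjusted p = 0.0341).

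**Figure D3:**
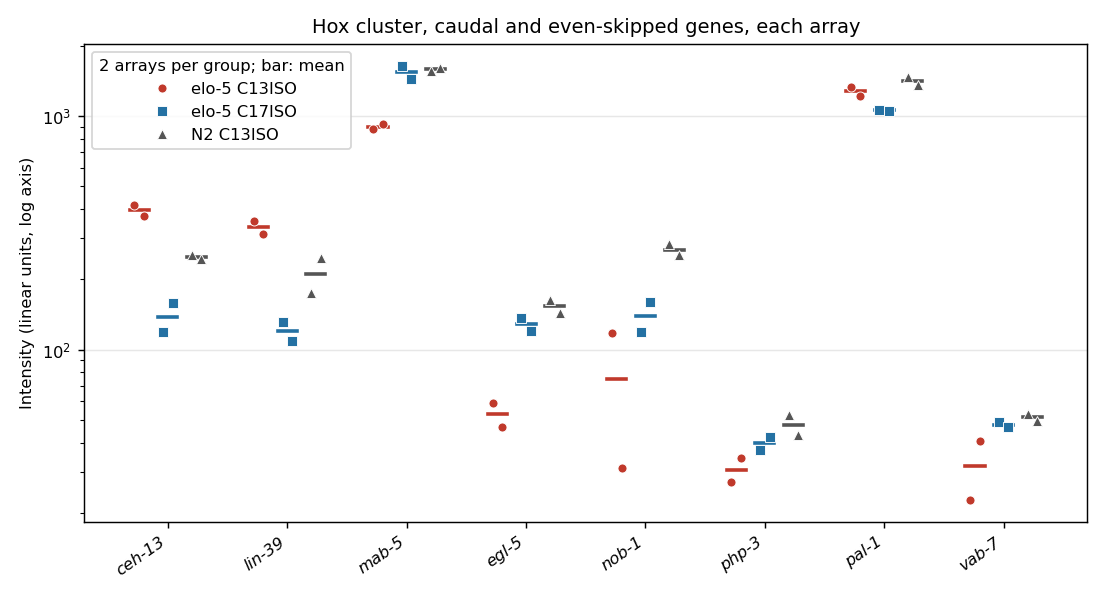
Intensity on a log axis for the 6 Hox genes, pal-1 and vab-7 on each of the 6 arrays, with bars at group means. The elo-5 C13ISO points of ceh-13 (416 and 375) and lin-39 (356 and 313) lie above the other groups, and those of mab-5 (881 and 920.4) and egl-5 (58.9 and 46.7) lie below them.

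The caudal-type gene pal-1, whose maternal RNA specifies posterior blastomeres of the embryo, gave probe sets that disagreed. The brightest read 1330.2 and 1222 in elo-5 C13ISO, 1067 and 1047 in elo-5 C17ISO, and 1468 and 1359 in N2 C13ISO. It was not called (log2 0.27, adjusted p = 0.105, and -0.15, adjusted p = 0.378). A second read 370.0 and 525 in elo-5 C13ISO, 889 and 816 in elo-5 C17ISO, and 672 and 675 in N2 C13ISO. It fell in both comparisons (log2 -0.92, 95% interval -1.32 to -0.53, adjusted p = 0.00364, and log2 -0.59, 95% interval -0.98 to -0.20, adjusted p = 0.0297). The third probe set was not called (log2 -0.31 and -0.41), so no single direction can be given for pal-1. The even-skipped-type gene vab-7, which patterns the posterior and acts in motor neurons, read 22.7 and 40.6 in elo-5 C13ISO, 48.8 and 46.6 in elo-5 C17ISO, and 53.1 and 49.4 in N2 C13ISO. Its elo-5 C13ISO arrays were the lowest of the 6, with differences of -0.45 (adjusted p = 0.166) and -0.52 (adjusted p = 0.111). They passed the test without elo-5 C13ISO array 2 (log2 -0.72, adjusted p = 0.0455, and -0.80, adjusted p = 0.0342) and with array medians aligned (adjusted p = 0.0346 to 0.0349). Of 8 genes listed as targets of PAL-1, nob-1 and vab-7 among them, 2 rose and 2 fell against elo-5 C17ISO, and 2 rose and 3 fell against N2. Over all genes 32.9% and 32% were called. The T-box gene tbx-9 rose (log2 1.56 and 1.49), as did the gene of the muscle-lineage factor hnd-1 (log2 1.33 and 1.28), which was dim. The Wnt gene cwn-1 fell (log2 -0.71 and -0.61), as did the epidermal GATA factor gene elt-1 (log2 -0.70 and -0.89), whose call against elo-5 C17ISO was lost without elo-5 C17ISO array 2 (adjusted p = 0.0505).

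The related genes ceh-32, ceh-33 and ceh-34 all rose, each by more than 2-fold in both comparisons. The list of this class also held ceh-35, which was not found under that symbol, so the class count covers only these 3 genes. Outside the rule, the homeobox gene unc-39 rose against elo-5 C17ISO only (log2 0.76, adjusted p = 0.0161). Its call was lost under either other scaling (adjusted p = 0.0653 to 0.0686). The gene ceh-32, which acts in head formation, read 592 and 682 in elo-5 C13ISO, 222 and 239 in elo-5 C17ISO, and 175 and 202 in N2 C13ISO. It rose 2.65-fold against elo-5 C17ISO (log2 1.40, 95% interval 1.04 to 1.77, adjusted p = 2.6e-04) and 3.19-fold against N2 (log2 1.67, 95% interval 1.31 to 2.04, adjusted p = 9.1e-05). Its dimmer probe set rose too (log2 1.17 and 0.83). The gene ceh-33 read 255 and 228 in elo-5 C13ISO, 60.2 and 54.9 in elo-5 C17ISO, and 59.5 and 62.9 in N2 C13ISO. It rose 3.5-fold and 3.33-fold (log2 1.81, adjusted p = 1.3e-04, and log2 1.74, adjusted p = 1.4e-04). Its neighbour on chromosome V, ceh-34, a selector of pharyngeal neurons, read 321 and 435 in elo-5 C13ISO, 136 and 144 in elo-5 C17ISO, and 97.1 and 138 in N2 C13ISO, a rise of 2.5-fold and 2.95-fold (log2 1.32, adjusted p = 0.00197, and log2 1.56, adjusted p = 7.7e-04). For each of the 3 genes both elo-5 C13ISO arrays lay above the other 4. The gene eya-1, whose protein is a cofactor of factors of this class, read 144 and 207 in elo-5 C13ISO, 20.9 and 24.4 in elo-5 C17ISO, and 20.2 and 19.3 in N2 C13ISO. It rose by 2.29 (adjusted p = 8.8e-05) and 2.40 (adjusted p = 6.1e-05) on the log2 scale.

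In the NK-like class, 4 of 17 genes rose and 1 fell against elo-5 C17ISO, and 6 rose and 1 fell against N2. These were 29.4% and 41.2% of the class, where 32.9% and 32% of all genes were called. The Nkx2-type gene ceh-22, which activates the pharyngeal myosin gene myo-2, read 379.8 and 428 in elo-5 C13ISO, 110.5 and 99.5 in elo-5 C17ISO, and 100.3 and 98.6 in N2 C13ISO. It rose 3.47-fold against elo-5 C17ISO (log2 1.79, 95% interval 1.41 to 2.18, adjusted p = 9.5e-05) and 3.63-fold against N2 (log2 1.86, 95% interval 1.48 to 2.24, adjusted p = 7.1e-05). Its other probe set rose as well (log2 1.35 and 1.77). The related NK-2 gene ceh-27 read 192 and 224 in elo-5 C13ISO, 56 and 58.4 in elo-5 C17ISO, and 69.96 and 74.7 in N2 C13ISO. It rose by 1.61 and 1.34 on the log2 scale. The EMX-type gene ceh-2, which acts in pharyngeal neurons, read 86 and 87.9 in elo-5 C13ISO, 47 and 48.4 in elo-5 C17ISO, and 30.6 and 39.97 in N2 C13ISO (log2 0.69 and 1.01). The call of ceh-2 against elo-5 C17ISO was lost without either elo-5 C13ISO array or either elo-5 C17ISO array (adjusted p = 0.0594 to 0.092) and under either other scaling (adjusted p = 0.0821 to 0.0923).

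The gene ceh-62 read 638 and 259 in elo-5 C13ISO, 118 and 119.03 in elo-5 C17ISO, and 112 and 134 in N2 C13ISO. It was the least repeatable of the large rises, with intervals of 0.87 to 2.45 and 0.83 to 2.41 around log2 1.66 and 1.62. Its call was lost without elo-5 C17ISO array 2 (adjusted p = 0.0502) against elo-5 C17ISO and without N2 C13ISO array 1 (adjusted p = 0.0583) against N2. Against N2 alone ceh-19 (log2 0.70, adjusted p = 0.0397) and the dim gene ceh-5 (log2 0.72, adjusted p = 0.0285) also rose. The ceh-19 call was lost without either elo-5 C13ISO array or either N2 C13ISO array (adjusted p = 0.0664 to 0.205) and under either other scaling (adjusted p = 0.0807 to 0.0906). The ceh-5 call was lost without either elo-5 C13ISO array or either N2 C13ISO array (adjusted p = 0.0542 to 0.157) and with array medians aligned (adjusted p = 0.0517). The engrailed-type gene ceh-16, which acts in the seam cells of the epidermis, read 619 and 609 in elo-5 C13ISO, 829.6 and 789 in elo-5 C17ISO, and 794 and 804 in N2 C13ISO. Its fall was small (log2 -0.39, adjusted p = 0.0352, and -0.37, adjusted p = 0.0429) and lost its call in both comparisons with any 1 of the 6 arrays left out (adjusted p = 0.0542 to 0.207). Of the epidermis genes given above, 5 and 6 of 10 fell in the same larvae, among them the collagen gene rol-6 (log2 -3.37 and -3.40), and their part in the fall of ceh-16 was not tested. The distal-less-type gene ceh-43 read 161 and 194 in elo-5 C13ISO, 257 and 235 in elo-5 C17ISO, and 229 and 235 in N2 C13ISO. It was lowest in elo-5 C13ISO but did not pass the test (log2 -0.44, adjusted p = 0.0771, and -0.36, adjusted p = 0.142). The BarH-type genes ceh-30 and ceh-31 were not called (log2 -0.05 and -0.11 against elo-5 C17ISO, 0.05 and 0.15 against N2). Nor were ceh-1 (log2 -0.43 and -0.25) and the dim genes ceh-23, ceh-24 and ceh-51.

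Pharyngeal muscle genes were higher together with these factors. All 5 listed (myo-1, myo-2, myo-5, tnc-2 and tni-4) rose in both comparisons, where 19.8% and 18% of all genes did so. Their summed intensities were 20283 to 25589 in elo-5 C13ISO, 10088 to 11801 in elo-5 C17ISO and 6760 to 7810 in N2, and none was under 16 on all 6 arrays. The ceh-22 target myo-2 read 3296 and 4868 in elo-5 C13ISO, 1903 and 1772 in elo-5 C17ISO, and 1233 and 1027 in N2 C13ISO. It rose 2.17-fold and 3.52-fold (log2 1.12, adjusted p = 0.00166, and log2 1.82, adjusted p = 1.1e-04). The part of the pharyngeal muscle shift in the rises of ceh-22, ceh-27, ceh-2 and ceh-34 was not tested.

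**Figure D4:**
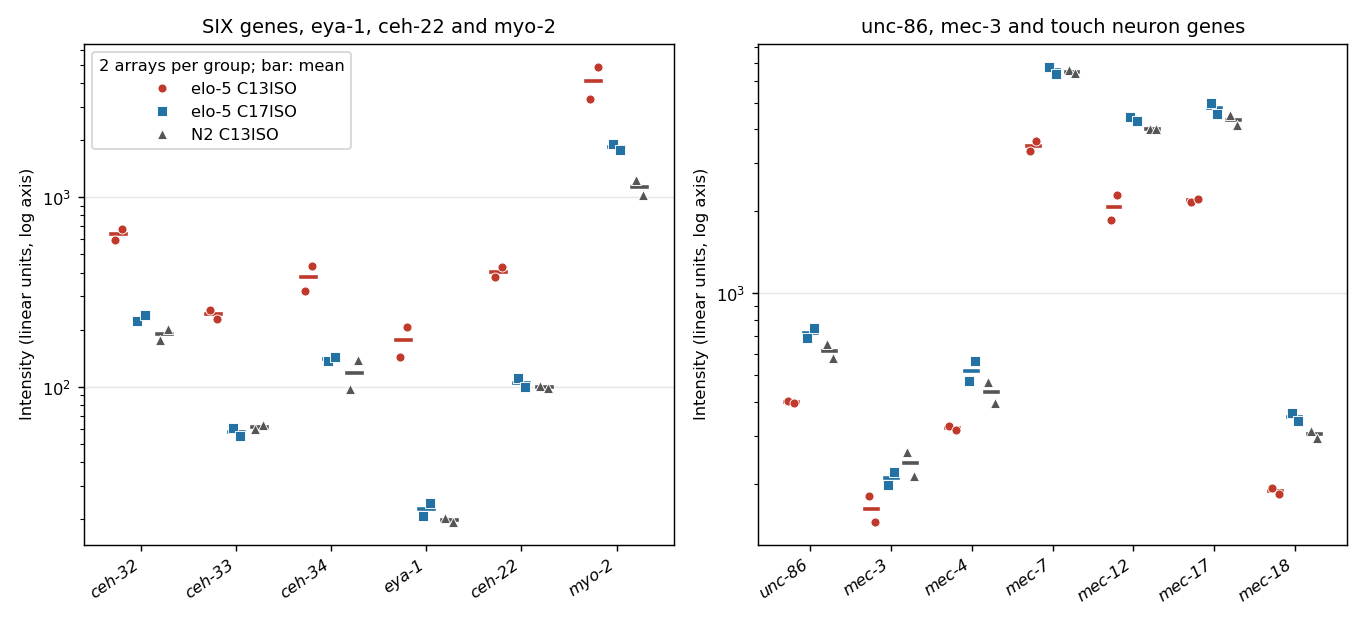
Intensity on a log axis for ceh-32, ceh-33, ceh-34, eya-1, ceh-22 and myo-2 (left) and for unc-86, mec-3 and the touch neuron genes (right) on each of the 6 arrays, with bars at group means. Each gene on the left is highest on the elo-5 C13ISO arrays (eya-1 at 144 and 207 against 20.9 and 24.4 in elo-5 C17ISO), and each on the right is lowest there (mec-17 at 2164 and 2226 against 4984 and 4547).

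Of 12 PRD-like genes, 6 rose and 0 fell in each comparison. Of all genes, 19.8% and 18% rose and 13.1% and 14% fell. The Otx-type gene ceh-36, a selector of the AWC and ASE sensory neurons, read 129 and 117 in elo-5 C13ISO, 32.6 and 7.51 in elo-5 C17ISO, and 26.7 and 28.5 in N2 C13ISO. It rose against elo-5 C17ISO (log2 2.04, 95% interval 1.33 to 2.75, adjusted p = 0.00129) and against N2 (log2 1.67, 95% interval 0.97 to 2.38, adjusted p = 0.00357), and both elo-5 C13ISO arrays lay above the other 4 although the elo-5 C17ISO arrays differed from each other. Its neighbour ceh-37, of the same type and known for the AWB neurons, read 755 and 631 in elo-5 C13ISO, 522 and 475 in elo-5 C17ISO, and 383 and 411 in N2 C13ISO. It rose by 0.46 (adjusted p = 0.0422) and 0.78 (adjusted p = 0.00387). The gene unc-42, a selector of command interneurons, read 251 and 248 in elo-5 C13ISO, 75.2 and 57.9 in elo-5 C17ISO, and 56.6 and 71.1 in N2 C13ISO. It rose 3.24-fold and 3.34-fold (log2 1.69, adjusted p = 2.9e-04, and log2 1.74, adjusted p = 2.4e-04). The glutamate receptor gene glr-1, which unc-42 activates, read 354 and 565 in elo-5 C13ISO, 213 and 242 in elo-5 C17ISO, and 179 and 186 in N2 C13ISO. It rose by 0.93 and 1.23. The ceh-37 call against elo-5 C17ISO was lost without elo-5 C13ISO array 1, either elo-5 C17ISO array or either N2 C13ISO array (adjusted p = 0.08 to 0.185), with array medians aligned (adjusted p = 0.265) and with its probe sets averaged (adjusted p = 0.063). That of glr-1 was lost without either elo-5 C17ISO array (adjusted p = 0.0501 to 0.0817).

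The goosecoid-type gene ceh-45 read 87.9 and 117 in elo-5 C13ISO, 31 and 24.6 in elo-5 C17ISO, and 32 and 29 in N2 C13ISO. It rose by 1.43 (adjusted p = 8.9e-04) and 1.34 (adjusted p = 0.0012). The gene ceh-8, a marker of the RIA interneuron, read 76.6 and 46.9 in elo-5 C13ISO, 19.2 and 25.5 in elo-5 C17ISO, and 37 and 30.9 in N2 C13ISO. It rose against elo-5 C17ISO (log2 1.00, adjusted p = 0.0106) but missed the threshold against N2 (log2 0.62, adjusted p = 0.0766). The Phox2-type gene ceh-17, which acts in the ALA neuron, read 41.8 and 29.6 in elo-5 C13ISO, 18.3 and 8.72 in elo-5 C17ISO, and 8.42 and 13.2 in N2 C13ISO, a dim signal that rose by 0.82 and 0.94. The call of ceh-8 was lost without elo-5 C13ISO array 1 or elo-5 C17ISO array 1 (adjusted p = 0.0568 to 0.0772). Against elo-5 C17ISO the ceh-17 call was lost without elo-5 C13ISO array 1 or elo-5 C17ISO array 2 (adjusted p = 0.12 to 0.142) and with array medians aligned (adjusted p = 0.0549). Against N2 it was lost without elo-5 C13ISO array 1 or N2 C13ISO array 1 (adjusted p = 0.0737 to 0.0926). The AFD selector ttx-1 read 353 and 385 in elo-5 C13ISO, 285 and 244 in elo-5 C17ISO, and 248 and 266 in N2 C13ISO. Its difference was called only against N2 (log2 0.49, adjusted p = 0.0431). That call was lost with any 1 of the 6 arrays left out (adjusted p = 0.0561 to 0.204), under either other scaling (adjusted p = 0.0577 to 0.159) and with its probe sets averaged (adjusted p = 0.17). Its second probe set did not move with the first (log2 -0.17 and 0.09, neither called). Of the AFD guanylyl cyclase genes that ttx-1 activates, gcy-18 read 117 and 76.5 in elo-5 C13ISO, 44.8 and 51.6 in elo-5 C17ISO, and 49.8 and 34.6 in N2 C13ISO. It rose by 0.79 (adjusted p = 0.0339) and 0.94 (adjusted p = 0.0165), while gcy-8 and gcy-23 were not called. Against elo-5 C17ISO the gcy-18 call was lost without elo-5 C13ISO array 1, either elo-5 C17ISO array or N2 C13ISO array 2 (adjusted p = 0.0502 to 0.168) and under either other scaling (adjusted p = 0.066 to 0.0814). Against N2 it was lost without elo-5 C13ISO array 1 or N2 C13ISO array 2 (adjusted p = 0.0888 to 0.141). The motor neuron gene unc-4 read 157 and 193 in elo-5 C13ISO, 219.7 and 244 in elo-5 C17ISO, and 257 and 239 in N2 C13ISO. It was lowest in elo-5 C13ISO and was not called (log2 -0.38, adjusted p = 0.131, and -0.47, adjusted p = 0.0688). The GABA neuron selector unc-30 overlapped between all groups at 273 and 319.8 in elo-5 C13ISO, 304 and 259 in elo-5 C17ISO, and 313 and 299 in N2 C13ISO, with intervals of -0.30 to 0.44 and -0.41 to 0.32 for the log2 differences. Its target unc-25, glutamic acid decarboxylase, was not called (log2 0.09 and 0.18). Its target unc-47, the vesicular GABA transporter, read 258 and 257 in elo-5 C13ISO, 173 and 188 in elo-5 C17ISO, and 178 and 181 in N2 C13ISO. It rose by 0.48 (adjusted p = 0.0471) and 0.49 (adjusted p = 0.0453). Both calls were lost with any 1 of the 6 arrays left out (adjusted p = 0.0673 to 0.183) and under either other scaling (adjusted p = 0.0876 to 0.284). The Chx10-type gene ceh-10, a partner of ttx-3 in AIY neurons, was not called (log2 0.16 and 0.27), nor were the dim genes ceh-53 and ceh-54. None of the 12 was lower at an unadjusted limma p under 0.05 against elo-5 C17ISO, and 1 (unc-4) was against N2.

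The LIM class was divided. The gene lim-4, which sets AWB against AWC identity, read 89 and 63.5 in elo-5 C13ISO, 18.4 and 13.3 in elo-5 C17ISO, and 17.6 and 16.9 in N2 C13ISO. It rose 2.88-fold and 2.75-fold (log2 1.53, adjusted p = 6.2e-04, and log2 1.46, adjusted p = 7.5e-04). The gene lin-11, known for vulval lineages and interneurons, read 282 and 244 in elo-5 C13ISO, 170.4 and 153 in elo-5 C17ISO, and 211 and 154 in N2 C13ISO by its brighter probe set. It rose against elo-5 C17ISO (log2 0.65, adjusted p = 0.0335). This call was lost without either elo-5 C13ISO array or either elo-5 C17ISO array (adjusted p = 0.0586 to 0.159), under either other scaling (adjusted p = 0.06 to 0.0961) and with its probe sets averaged (adjusted p = 0.256). Its second probe set was at log2 -0.11 and -0.35, not called. The AIY selector ttx-3 read 144 and 147 in elo-5 C13ISO, 108 and 102 in elo-5 C17ISO, and 95.2 and 80.04 in N2 C13ISO. It rose against N2 (log2 0.65, adjusted p = 0.024), with a similar value at its other probe set (log2 0.62, adjusted p = 0.027). The call of the first was lost without either elo-5 C13ISO array or either N2 C13ISO array (adjusted p = 0.0567 to 0.179) and under either other scaling (adjusted p = 0.0563 to 0.0589). The AIY receptor gene sra-11, a ttx-3 target, was dim and rose against N2 (log2 0.67, adjusted p = 0.0259). That call was lost without either elo-5 C13ISO array or either N2 C13ISO array (adjusted p = 0.0754 to 0.117) and with array medians aligned (adjusted p = 0.0655). The gene ceh-14, which acts in AFD and other neurons, read 201 and 192 in elo-5 C13ISO, 466 and 287 in elo-5 C17ISO, and 226 and 203 in N2 C13ISO. It fell against elo-5 C17ISO (log2 -0.85, adjusted p = 0.0192) and not against N2 (log2 -0.12, interval -0.63 to 0.39). Its elo-5 C17ISO array 1 stood above the other 5. That call was lost without either elo-5 C13ISO array or elo-5 C17ISO array 1 (adjusted p = 0.0684 to 0.121) and with its probe sets averaged (adjusted p = 0.326). The second probe set of ceh-14 was dim and not called, with the opposite sign against elo-5 C17ISO (log2 0.29 and -0.22). The gene lim-6, which acts in GABA and sensory neurons, was not called (log2 0.15 and 0.41).

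Both called POU genes fell. The gene unc-86 specifies touch receptor and other neurons and read 403 and 395 in elo-5 C13ISO, 686 and 746 in elo-5 C17ISO, and 653 and 578 in N2 C13ISO. Its elo-5 C13ISO arrays were the lowest, and it fell 1.76-fold against elo-5 C17ISO (log2 -0.82, 95% interval -1.12 to -0.51, adjusted p = 0.00196) and 1.52-fold against N2 (log2 -0.60, 95% interval -0.91 to -0.30, adjusted p = 0.00906). The call against N2 was lost without N2 C13ISO array 1 (adjusted p = 0.0934). Its partner in touch neurons, the LIM gene mec-3, read 179.9 and 145 in elo-5 C13ISO, 198 and 222 in elo-5 C17ISO, and 263 and 213 in N2 C13ISO. It was lowest in elo-5 C13ISO but did not pass the test (log2 -0.34, adjusted p = 0.204, and -0.51, adjusted p = 0.0715). The list of 15 neuron and pharynx targets of homeodomain factors, with 4 higher and 5 lower against elo-5 C17ISO and 5 higher and 4 lower against N2, moved in both directions. Its falls were all among the 5 touch neuron genes (5 and 4 of 5), while unc-47, gcy-18, glr-1 and myo-2 rose in both comparisons and sra-11 against N2. Of all genes, 32.9% and 32% were called. The tubulin acetyltransferase gene mec-17 read 2164 and 2226 in elo-5 C13ISO, 4984 and 4547 in elo-5 C17ISO, and 4489 and 4151 in N2 C13ISO (log2 -1.11 and -0.97). The tubulin genes mec-12 (log2 -1.07 and -0.95) and mec-7 (log2 -0.92 and -0.90) and the gene mec-18 (log2 -0.85 and -0.64) fell in both. The channel gene mec-4 fell against elo-5 C17ISO (log2 -0.67, adjusted p = 0.0111) and missed the threshold against N2 (log2 -0.42, adjusted p = 0.0766). The mec-4 call was lost without elo-5 C17ISO array 2 (adjusted p = 0.0869), and the mec-18 call against N2 without either N2 C13ISO array (adjusted p = 0.066 to 0.0886). Of the 18 pan-neuronal genes 0 fell, as given above, and whether touch neurons changed in number was not tested.

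The POU gene ceh-6, known for the excretory cell, where it supports canal function, and for head neurons, read 431 and 457 in elo-5 C13ISO, 960.4 and 949 in elo-5 C17ISO, and 893 and 787 in N2 C13ISO. It fell 2.11-fold against elo-5 C17ISO (log2 -1.08, 95% interval -1.37 to -0.79, adjusted p = 3.2e-04) and 1.86-fold against N2 (log2 -0.89, 95% interval -1.18 to -0.60, adjusted p = 8.6e-04), with both elo-5 C13ISO arrays below the other 4. Of 7 glia and excretory genes, 1 rose in each comparison, 2 fell against elo-5 C17ISO and 3 against N2, where 32.9% and 32% of all genes were called. None of the 7 was under 16 on all 6 arrays. Their sums were 5251 to 5898 in elo-5 C13ISO, 5792 to 6864 in elo-5 C17ISO and 6152 to 6609 in N2, and their part in the fall of ceh-6 was not tested. The gonadal sheath gene ceh-18 overlapped between the groups by its brightest probe set (327 and 295 in elo-5 C13ISO, 333 and 254 in elo-5 C17ISO, and 374 and 263 in N2 C13ISO), while its second was called higher against elo-5 C17ISO (log2 0.64, adjusted p = 0.0241) and not against N2 (log2 0.13).

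The largest rise of any member against elo-5 C17ISO was in the ONECUT gene ceh-49. ONECUT factors act together in neuronal gene expression, and ceh-49 read 123 and 111 in elo-5 C13ISO, 15.5 and 10.1 in elo-5 C17ISO, and 34.9 and 23.3 in N2 C13ISO. It rose 4.63-fold (log2 2.21, 95% interval 1.74 to 2.68, adjusted p = 9.7e-05) and 2.97-fold against N2 (log2 1.57, 95% interval 1.09 to 2.04, adjusted p = 5.8e-04), with no overlap between the 3 groups. The ONECUT gene ceh-39, an X-chromosome signal of sex determination, read 823 and 1520.5 in elo-5 C13ISO, 785 and 701 in elo-5 C17ISO, and 603 and 522 in N2 C13ISO by its brightest probe set. The elo-5 C13ISO arrays were highest but far apart, and the rise was called against N2 (log2 0.98, 95% interval 0.41 to 1.54, adjusted p = 0.0173) and not against elo-5 C17ISO (log2 0.58, 95% interval 0.01 to 1.15, adjusted p = 0.114). Its second probe set read 351 and 426 in elo-5 C13ISO, 192 and 178 in elo-5 C17ISO, and 229 and 204 in N2 C13ISO. It rose in both (log2 1.00, adjusted p = 0.00211, and 0.79, adjusted p = 0.00702). The third was not called (log2 0.27 and 0.37). The first call was lost without either N2 C13ISO array (adjusted p = 0.0593 to 0.122). None of ceh-38, ceh-21, ceh-41 and ceh-48 was called in either comparison, with log2 differences from -0.42 (ceh-48) to 0.68 (ceh-21) against elo-5 C17ISO. The genes ceh-41, ceh-21 and ceh-39 lie next to each other on the X chromosome, with at most 1 protein-coding gene between neighbours. The oocyte and early embryo markers given above were higher in the same larvae, and their part in the rise of ceh-39 was not tested.

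The PBC genes, whose proteins are partners of Hox proteins, moved in opposite directions. The gene ceh-20 read 1707 and 1999.8 in elo-5 C13ISO, 2756 and 2633 in elo-5 C17ISO, and 2575 and 2643 in N2 C13ISO. Its fall was small (log2 -0.54, adjusted p = 0.00486, and -0.49, adjusted p = 0.00761), and its second probe set fell by 0.61 and 0.65. The call of the first against N2 was lost without either N2 C13ISO array (adjusted p = 0.0527 to 0.0746). The gene ceh-40, which acts with ceh-20 in the embryo, read 95.5 and 121 in elo-5 C13ISO, 38.7 and 31 in elo-5 C17ISO, and 41.5 and 48.9 in N2 C13ISO. It rose 2.44-fold and 2.03-fold (log2 1.29, adjusted p = 0.00152, and log2 1.02, adjusted p = 0.00501). The remaining gene, ceh-60, known for control of yolk protein genes, was dim and not called (log2 0.18 and 0.12). Among 6 listed cofactors of homeodomain proteins, 1 rose and 1 fell against elo-5 C17ISO, and 1 rose and 2 fell against N2. Over all genes 32.9% and 32% were called. Beside eya-1, the Meis-related gene psa-3, itself a target of NOB-1 and CEH-20 in the tail, read 308 and 297 in elo-5 C13ISO, 893 and 805 in elo-5 C17ISO, and 702 and 763 in N2 C13ISO. It fell by 1.44 (adjusted p = 8.4e-05) and 1.23 (adjusted p = 1.8e-04) on the log2 scale. The Groucho-type corepressor gene unc-37 fell against N2 (log2 -0.48, adjusted p = 0.011). The unc-37 call was lost without either N2 C13ISO array (adjusted p = 0.0803 to 0.0865) and with its probe sets averaged (adjusted p = 0.104). The Meis-type gene unc-62, known as a Hox cofactor, had the values 1385 and 1122 in elo-5 C13ISO, 869.5 and 992 in elo-5 C17ISO, and 1850.4 and 1495 in N2 C13ISO. It was not called (log2 0.42, adjusted p = 0.0704, and -0.41, adjusted p = 0.0763).

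Of the 19 remaining ceh genes, which the class lists do not hold, 4 were called against elo-5 C17ISO and 2 against N2. The gene ceh-79 read 152 and 113 in elo-5 C13ISO, 75.5 and 55 in elo-5 C17ISO, and 138 and 98 in N2 C13ISO. It rose against elo-5 C17ISO (log2 0.86, adjusted p = 0.0238). That call was lost without elo-5 C13ISO array 1 or elo-5 C17ISO array 2 (adjusted p = 0.128 to 0.155). Its N2 arrays overlapped those of elo-5 C13ISO (log2 0.15). The gene ceh-91 rose against elo-5 C17ISO too (log2 0.62, adjusted p = 0.0279). It lost the call with any 1 of the 6 arrays left out (adjusted p = 0.0567 to 0.129) and under either other scaling (adjusted p = 0.0954 to 0.13). The gene ceh-87 read 35.1 and 32.9 in elo-5 C13ISO, 64.7 and 56.9 in elo-5 C17ISO, and 33.4 and 39.9 in N2 C13ISO. It fell against elo-5 C17ISO (log2 -0.62, adjusted p = 0.0321), with the N2 arrays near those of elo-5 C13ISO. Its call was lost with any 1 of the 6 arrays left out (adjusted p = 0.0578 to 0.139). The gene ceh-86 fell in both (log2 -0.60, adjusted p = 0.0273, and -0.55, adjusted p = 0.0403), calls that were lost with any 1 of the 6 arrays left out (adjusted p = 0.051 to 0.258). The gene ceh-90 read 32.5 and 12.7 in elo-5 C13ISO, 32.2 and 38.2 in elo-5 C17ISO, and 72.1 and 52.7 in N2 C13ISO. It fell against N2 (log2 -1.06, adjusted p = 0.017). It lost the call without elo-5 C13ISO array 2 or N2 C13ISO array 1 (adjusted p = 0.0982 to 0.119). The brightest of the group, ceh-88, overlapped between groups at 383 and 223 in elo-5 C13ISO, 344 and 359.5 in elo-5 C17ISO, and 394 and 362 in N2 C13ISO. The gene ceh-83 came nearest to a further call (log2 0.70 against N2, adjusted p = 0.0504). The genes ceh-74, ceh-89, ceh-93 and ceh-100 lay between log2 -0.10 (ceh-93) and 0.33 (ceh-89) against elo-5 C17ISO. The gene ceh-58 was not called by its brighter probe set (log2 -0.21) but fell against elo-5 C17ISO by the dimmer one (log2 -0.54, adjusted p = 0.0425). Of the 18 dim members, ceh-17 was called against elo-5 C17ISO, and ceh-17 and ceh-5 against N2. The other 16, with ceh-7, ceh-12, ceh-28, ceh-75, ceh-81 and ceh-85 under 16 on all 6 arrays, gave log2 differences from -0.34 to 0.54 against elo-5 C17ISO and from -0.19 to 0.46 against N2.

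In the comparison of elo-5 C17ISO with N2 C13ISO, which differ in both genotype and supplement, 0 of 77 homeobox genes were called by limma, with 0.467% of all genes called, and 9 had an unadjusted p under 0.05. Log2 differences ran from -0.88 (nob-1) to 0.74 (ceh-81), and the median was -0.04, against -0.02 over all genes. The other nob-1 probe sets did not show that difference (log2 0.15 and 0.02, neither called). The arrays did not overlap for 17 members that were higher in elo-5 C17ISO and 15 that were lower, while 46% of all genes did so, 19.9% higher and 26.2% lower. The widest differences among members above the 30th percentile were those of nob-1, ceh-13 (log2 -0.79, interval -1.19 to -0.38, adjusted p = 0.126), ceh-14 (log2 0.73, interval 0.22 to 1.24), lin-39 (log2 -0.72, interval -1.19 to -0.26) and ceh-79 (log2 -0.72, interval -1.26 to -0.17). The dim second probe set of ceh-14 went the other way (log2 -0.51, not called). For ceh-13 and lin-39 the N2 arrays lay between the elo-5 groups without overlapping either. The missed threshold does not show that elo-5 C17ISO and N2 larvae had equal levels, since the intervals of ceh-13 and lin-39 leave out 0 before adjustment. For the 8 genes with the largest rises in elo-5 C13ISO against elo-5 C17ISO, the intervals were -1.12 to -0.17 (ceh-49), -1.07 to 0.34 (ceh-36), -0.48 to 0.33 (ceh-33), -0.32 to 0.45 (ceh-22), -0.40 to 0.49 (unc-42), -0.83 to 0.75 (ceh-62), -0.68 to 0.14 (ceh-27) and -0.53 to 0.39 (lim-4).

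Homeobox genes whose names fall outside the rule showed both directions. Of 19 measured, 6 rose and 4 fell against elo-5 C17ISO, and 5 rose and 3 fell against N2. The shares called over all genes were 32.9% and 32%. The neuronal zinc finger homeobox gene zag-1 read 274 and 337 in elo-5 C13ISO, 707 and 759 in elo-5 C17ISO, and 847 and 909 in N2 C13ISO. It fell by 1.23 (adjusted p = 3.2e-04) and 1.48 (adjusted p = 1.1e-04) on the log2 scale. The LIM gene lim-7 rose (log2 1.46 and 1.03), as did mls-2, which acts in the mesodermal lineage and head glia (log2 1.29 and 0.95). Against N2 the call of lim-7 was lost without elo-5 C13ISO array 2 or either N2 C13ISO array (adjusted p = 0.066 to 0.0704). That of mls-2 was lost without elo-5 C13ISO array 2 or either N2 C13ISO array (adjusted p = 0.072 to 0.11). Of 7 Polycomb-like genes that repress Hox genes, 0 were called by limma in any of the 3 comparisons. At an unadjusted p under 0.05 there were 2 against elo-5 C17ISO, 1 against N2, and 1 between elo-5 C17ISO and N2. The largest differences of that list were in mes-3 (log2 0.44 against elo-5 C17ISO, adjusted p = 0.0594) and sop-2 (log2 0.42 and 0.41, adjusted p = 0.0626 and 0.0664).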

How the data were processed

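Total RNA of whole unfed L1 larvae was measured on 6 Affymetrix arrays, 2 in each of 3 groups. The authors computed the deposited linear intensities, 1 for each of 22548 probe sets and array, with dChip, per the labels. The dChip version, its background correction and its normalization are not stated in the labels or files, and these steps bear on how far intensities of different arrays can be compared. Arrays give no read depth, so their number limits the precision.

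From these intensities log2(intensity + 16) was computed without a filter, since dim members would otherwise drop out unevenly. Differences were fitted with limma 3.58.1 (lmFit, eBayes with an intensity trend, R 4.3.3) on all 6 arrays, which share 1 estimate of the spread (3 residual degrees of freedom and a prior of 5.49). Adjustment of p-values was done with the Benjamini-Hochberg method over all probe sets, and a call is an adjusted p under 0.05. A fold is 2 to the power of the log2 difference and thus on the scale with the offset. Tables and figures used Python 3.11.15, pandas 2.3.3 and matplotlib 3.10.9. The fit was tested on simulated data. Genes were named through the platform table's symbols from probe sets with 1 symbol, and 1 probe set with several was left out. All 77 symbols matched the WBcel235 gene table, which gave chromosomes and neighbours.

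Named in full were the Hox genes, pal-1, vab-7, the members with the largest called differences in each direction, and in each class the brightest and the most changed members, with further probe sets of the same gene. The members and lists were chosen with earlier results of these data known. The numbers of replicates were checked for pairing: deviations of same-numbered arrays correlated at r = 0.013, 0.037 and 0.038, and the labels do not state a shared batch, so the numbers were not taken as pairs. In all, 17 alternative settings were run for genes and counts, and a fold minimum for counts. They covered the offset, filters, scaling, the variance prior, the arrays fitted, a replicate block, averaged probe sets and each array left out.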

Additional observations from a re-analysis of the deposited data

How the results depend on the processing

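Of the genes called against elo-5 C17ISO, 18 of 30 (13 higher, 5 lower) kept their call in each setting that tested them, and 16 of 31 (13 higher, 3 lower) did so against N2. Some of these were tested in 16 of the 17 settings, because the filter at the 50th percentile left them out. The counts moved beyond 1.5 times with a filter at the 50th percentile (17 and 18 called), which tests only 35 members, and with a 2-fold minimum (16 and 16). Against N2 the count also did so without N2 C13ISO array 1. Leaving out 1 array gave 20 to 25 calls against elo-5 C17ISO, 16 to 27 against N2 (16 without N2 C13ISO array 1) and 0 between elo-5 C17ISO and N2, where a lone array was assumed to vary like the others. With the replicate block 31 (22 higher, 9 lower), 28 (20 higher, 8 lower) and 0 members were called, and against N2 ceh-16, ttx-1 and lin-39 lost their calls (adjusted p = 0.0519 to 0.0583). A fit of only the arrays compared called 25 and 27. Signs were followed only for called genes, the Hox genes, pal-1 and vab-7. Among these, reversed signs were seen only in uncalled values. They were pal-1 against elo-5 C17ISO with probe sets averaged (log2 -0.32, adjusted p = 0.0896), and mab-5 between elo-5 C17ISO and N2 (log2 -0.04). The latter was 0.0268 with array medians aligned and 0.0082 with probe sets averaged, and ranged from -0.14 to 0.0528 with 1 array left out. The cause of these changes was not tested, except that averaging brings in probe sets of pal-1 that fell or were lower. No called homeobox gene turned direction. Array signal limits the 18 dim members, whose differences are compressed by the offset.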

Other observations

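Genes for transcription factors of embryonic lineages that carry no homeobox were measured beside the homeobox genes. Of 19 such genes, 2 rose and 7 fell in elo-5 C13ISO against elo-5 C17ISO, and 2 rose and 6 fell against N2, where all genes gave 32.9% and 32% called. Those that fell in both comparisons were cnd-1, lin-32, hlh-14 and ngn-1, basic helix-loop-helix genes that act in neuronal lineages, and elt-1, given above. Against elo-5 C17ISO alone elt-6 and tbx-2 also fell, and against N2 alone lin-26. The tbx-2 call was lost with its probe sets averaged (log2 -0.37, adjusted p = 0.186) and without elo-5 C17ISO array 1 (log2 -0.55). That of elt-6 was lost without elo-5 C13ISO array 1 (log2 -0.46) or elo-5 C17ISO array 1 (log2 -0.40). The NeuroD-type gene cnd-1 read 43.1 and 38.1 in elo-5 C13ISO, 274 and 336 in elo-5 C17ISO, and 375 and 326 in N2 C13ISO, with both elo-5 C13ISO arrays far below the other 4 (log2 -2.50, adjusted p = 2.2e-05, and -2.69, adjusted p = 1.4e-05). The atonal-type gene lin-32, which starts the touch neuron lineages among others, read 152 and 154 in elo-5 C13ISO, 368 and 525 in elo-5 C17ISO, and 331 and 273 in N2 C13ISO (log2 -1.43, adjusted p = 8.1e-04, and -0.90, adjusted p = 0.00861). The achaete-scute-type gene hlh-14 read 64.6 and 110.2 in elo-5 C13ISO, 238 and 249 in elo-5 C17ISO, and 234 and 218 in N2 C13ISO (log2 -1.36 and -1.26), and the neurogenin-type gene ngn-1 read 90.9 and 108 in elo-5 C13ISO, 216 and 201 in elo-5 C17ISO, and 148 and 162 in N2 C13ISO (log2 -0.96 and -0.57). Against N2 the call of lin-32 was lost without N2 C13ISO array 1 (adjusted p = 0.0816) and that of ngn-1 without elo-5 C13ISO array 1, either elo-5 C17ISO array or either N2 C13ISO array (adjusted p = 0.0638 to 0.21). The pharynx organ factor gene pha-4 rose (log2 0.85, adjusted p = 0.00192, and 0.96, adjusted p = 9.5e-04), as did the dim gene hnd-1, given above. Of the 18 pan-neuronal genes 0 fell by limma in the same larvae, and 0 were lower at an unadjusted p under 0.05. Whether cells of the neuronal lineages changed in number was not tested.

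The homeobox genes were also counted by chromosome in the WBcel235 table, after their values had been seen and with no test. Chromosome V held 14, of which 8 rose and 0 fell in each comparison, while 31.5% and 30.6% of all its genes were called. The sets differed by 1 gene, since ceh-79 was called only against elo-5 C17ISO and ttx-1 only against N2. Chromosome III, which carries all 6 Hox cluster genes, held 15, of which 3 rose and 5 fell against elo-5 C17ISO and 2 rose and 6 fell against N2 (33.2% and 31.8% of all its genes called). Chromosome I held 8, with 5 higher and 1 lower against elo-5 C17ISO and 4 and 1 against N2 (32.5% and 31.4%). Of 14 on chromosome II, 1 rose and 2 fell, and 1 rose and 1 fell (32.4% and 32%). Of 6 on chromosome IV, 0 were called by limma against elo-5 C17ISO (1 at an unadjusted p under 0.05) and 1 rose against N2 (32.7% and 32%). Of 20 on the X chromosome, 4 rose and 1 fell, and 6 rose and 1 fell (36.6% and 35.4%).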
